A study of Mus musculus with 12 samples.

Results

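The genes described here are 42 nucleolar, RNA polymerase I and RNA exosome genes that build ribosomes and process ribosomal RNA. They were taken by symbol from the 47069 genes of the count table, by a rule that sets no threshold on expression but was drawn up with earlier results of these data known, and all 42 were found there and passed the filter on low counts. The RNA came from mouse organoids of C57BL/6 background, labelled as liver cancer, that carry the Lgr5-DTR-GFP knock-in, in which the Lgr5 promoter drives green fluorescent protein together with the diphtheria toxin receptor. Every library carries this allele, controls included. The tumors had been induced with the carcinogen diethylnitrosamine, the organoids were left untreated or given 5-fluorouracil (5-FU), and living CD45-negative cells were sorted by the reporter into LGR5+ and LGR5- cells. Each of the 4 groups (untreated LGR5-, untreated LGR5+, 5-FU LGR5-, 5-FU LGR5+) had 3 libraries. The sort reads the reporter, so the populations are defined by the activity of this promoter. The dose and duration of 5-FU for the sequenced cells are not given in the sources used here, nor is whether replicates were separate cultures or animals, so P values measure the spread between these samples, which may be technical.

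Ribosomes begin in the nucleolus, where RNA polymerase I transcribes the long precursor of 18S, 5.8S and 28S ribosomal RNA. Small nucleolar ribonucleoproteins (snoRNPs) then modify the precursor, the small subunit processome and the 60S assembly factors fold and cut it, and the exosome trims it from its 3′ end. 5-FU is converted in cells to nucleotides that enter RNA as well as to an inhibitor of thymidylate synthase, and its incorporation is known to disturb pre-rRNA processing and pseudouridylation. The libraries were made from RNA with an mRNA amplification kit, so the values below are mRNA levels of the factors, not levels of ribosomal RNA or of its precursors. In bulk RNA of this kind, fewer cells of a type and less RNA per cell cannot be told apart.

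Levels are CPM, read counts relative to the library total with totals scaled by the trimmed mean of M values (TMM), and levels between genes are compared per kilobase of exon (RPKM). A gene was called when the P value of edgeR's quasi-likelihood test, adjusted by Benjamini-Hochberg over all 16157 genes tested, was below 0.05. Library totals ran from 13750591 to 19323514 counts. Both LGR5- replicate 3 libraries stood apart, with 6.93% (untreated) and 6.44% (5-FU) of reads from mitochondrial genes against 1.47% to 3.08% in the other 10. Of 8 hepatocyte markers, Serpina1a and Fgb had 0 reads in all libraries, Hnf4a had at most 2 reads and Alb 2 to 33 reads. Afp, the fetal liver gene alpha-fetoprotein in the same list, had 178 to 966 reads in the libraries and rose with 5-FU in both populations (log2 fold changes of 1.31 in LGR5+ and 1.43 in LGR5- cells, edgeR adjusted P = 0.0177 and 0.0118). The summed level of 7 cholangiocyte markers was 2390 to 3110 CPM in untreated and 3430 to 11900 CPM in 5-FU libraries, and that of 8 lung epithelial markers, mostly Sftpc, was 2800 to 17500 CPM over all libraries. Nkx2-1, a transcription factor that defines lung and thyroid epithelium, was at 43.3 to 76.3 CPM in every library. Apart from Afp, the markers named here do not bear out hepatocytes, and the liver label is used as the submitters gave it. Of 5 macrophage markers, summed at 31.6 to 65.7 CPM in untreated and 44.5 to 113 CPM in 5-FU libraries, Cd68 rose in both populations (log2 fold changes of 2.07 and 1.95, edgeR adjusted P = 0.00173 and 0.00326 in LGR5+ and LGR5- cells), while Adgre1 and Csf1r had at most 7 and 11 reads and Marco 0. Cd14, most of that sum in the untreated libraries, was at 25.3 to 60.5 CPM over all libraries and was not called (0.26 and 0.40). The 4 leukocyte markers summed to at most 2.14 CPM, 4 endothelial ones to at most 4.06 CPM and 6 fibroblast ones to 26.2 to 60.9 CPM. The cholangiocyte sum and the hepatocyte sum (11.2 to 22.6 CPM untreated, 26.3 to 56.8 CPM with 5-FU) were higher in every 5-FU library than in every untreated one, while the ranges of the other sums overlapped between treatments. The part of these cell types in the results below was not tested.

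The mRNAs of 2 nucleolar proteins made up much of the signal of the whole list. Npm1 encodes nucleophosmin, a chaperone of ribosome assembly, and Ncl encodes nucleolin, which binds pre-rRNA. Together they took 38.2% to 44.4% of the summed level of the 42 members in the 6 untreated libraries and 19% to 35.9% in the 6 treated with 5-FU, so the ranges did not overlap. Their summed level was 2559 ± 998 CPM in untreated and 1159 ± 449 CPM in 5-FU LGR5- cells (mean ± SD, n = 3), and 2355 ± 368 against 1421 ± 262 CPM in LGR5+ cells. The other 40 members summed to 3649 ± 1140 and 2913 ± 200 CPM in LGR5- cells, and to 3295 ± 602 and 3147 ± 77.5 CPM in LGR5+ cells. In both populations the 5-FU means of these 40 lay within 1 SD of the untreated ones. In untreated LGR5- cells that SD came largely from replicate 3, with 2339 CPM beside 4248 and 4360 CPM. In 5-FU LGR5- replicate 3, Nop10 and Nhp2 made up 849 and 371 of 2752 CPM. The sums therefore do not show that these 40 were unchanged, and 37 of all 42 members had negative LGR5- estimates.

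**Figure D1:**
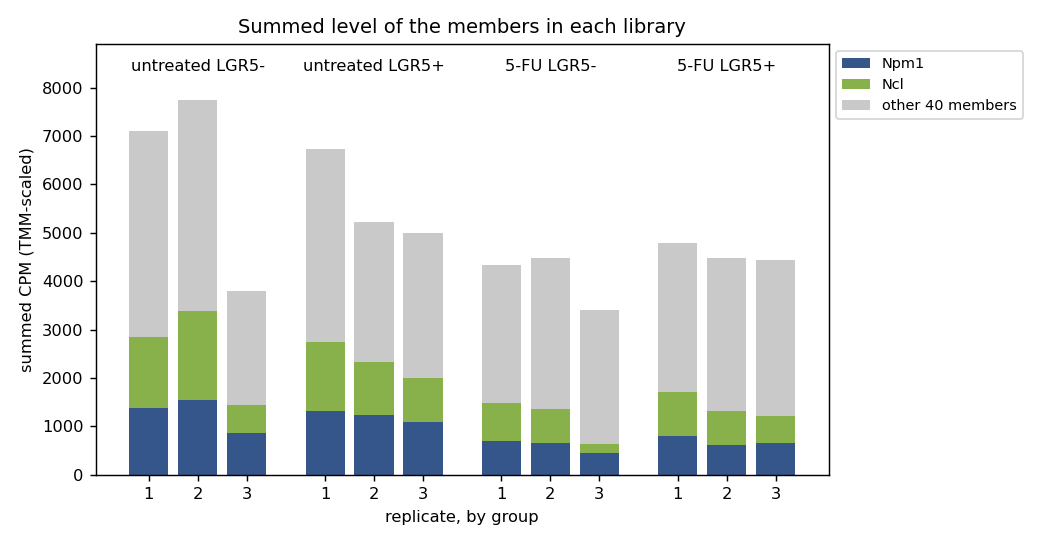
Stacked bars give the summed TMM-scaled CPM of Npm1, Ncl and the other 40 members in each of the 12 libraries, by group and replicate. The total ran from 3398 CPM in 5-FU LGR5- replicate 3 to 7737 CPM in untreated LGR5- replicate 2, and untreated LGR5- replicate 3 reached 3788 CPM.

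The untreated libraries differed widely among themselves. Untreated LGR5- replicate 3 had the lowest level of its group for 42 of 42 members, with a summed level of 3788 CPM beside 7096 and 7737 CPM in replicates 1 and 2. In untreated LGR5+ cells, replicate 1 was the highest of its group for 40 of 42 members (6730 CPM against 5218 and 5000). After 5-FU, LGR5- replicate 3 was the lowest of its group for 35 members, while the 3 LGR5+ libraries summed to 4788, 4468 and 4446 CPM. The median SD of a member's log2 level within a group was 0.528 in untreated LGR5-, 0.301 in untreated LGR5+, 0.364 in 5-FU LGR5- and 0.132 in 5-FU LGR5+ cells. The 3 libraries with the highest summed level of the members also had the highest Sftpc, at 16400, 17300 and 15700 CPM, against 2620 to 6040 CPM in the other 9. The part of the Sftpc level and of the mitochondrial share in these values was not tested.

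**Figure D2:**
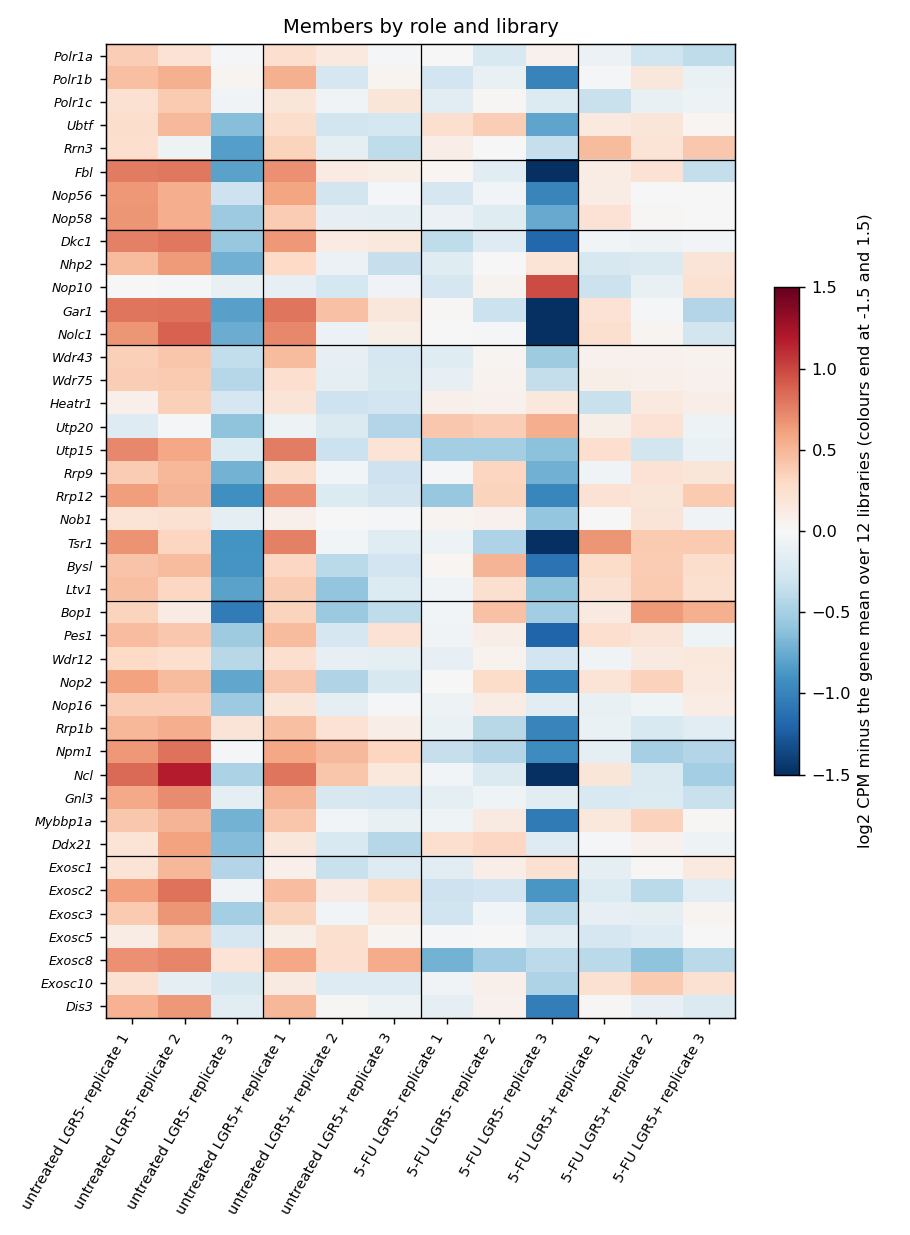
Each cell gives the log2 CPM of a member (rows, grouped by role between the black lines) in a library (columns), minus the mean of that member over the 12 libraries, with red higher and blue lower. Untreated LGR5- replicates 1 and 2 and untreated LGR5+ replicate 1 were red for most members, and 5-FU LGR5- replicate 3 was blue for most, with Nop10 as its reddest cell.

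Per kilobase of exon, the members spanned 1.16 to 400 RPKM (means over 12 libraries), with a median of 15.2 RPKM. The highest were Nop10 (400 RPKM), Npm1 (354 RPKM) and Nhp2 (290 RPKM), followed by Ncl at 91.2 RPKM, Nop16 at 61.9, Nop56 at 57.3 and Exosc3 at 56.9 RPKM. Nop10 and Nhp2 are small core proteins of the box H/ACA snoRNP, the pseudouridylation machine. The lowest were Polr1b (1.16 RPKM), which encodes the second largest subunit of RNA polymerase I, then the processome scaffold gene Heatr1 (1.53 RPKM), Rrp12 (1.58 RPKM) and Polr1a (1.70 RPKM), which encodes the largest polymerase I subunit. Every member had at least 44 reads in its lowest library.

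With 5-FU, 2 of the 42 members fell in LGR5+ cells, Exosc8 and Npm1, and none rose. Over all genes tested, 6.37% were called lower and 9.66% higher in this comparison. The members' share of lower calls, 4.76%, was near the background. Their share called in either direction, also 4.76%, was below the 16% of all genes. The median log2 fold change of the members was -0.02, beside -0.02 over all genes, with 20 members above and 22 below 0, and 51.2% of all genes were below 0. Without untreated LGR5+ replicate 1 the median was 0.14. The groups did not overlap for 2 members that were higher and 8 that were lower, against 22.3% and 20% of all genes. At an unadjusted P below 0.05, 0 members were higher and 4 lower (Polr1a, Npm1, Exosc2 and Exosc8), against 16.1% and 13.9% of all genes. A fit of the LGR5+ libraries alone called 4 members lower (12.1% of all genes in that fit), and without both LGR5- replicate 3 libraries, which enter through the shared estimate of spread, 6 were lower (Exosc2, Gar1, Ncl and Rrp1b besides these), as were 12.4% of all genes.

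In LGR5- cells 5 members fell with 5-FU, Exosc8, Npm1, Exosc2, Rrp1b and Utp15, and 1 rose, Utp20. Over all genes 7.11% were called lower and 8.3% higher, and the members' share called in either direction was 14.3% beside 15.4%. Of the 6 members called, 5 were lower, while among all genes more were called higher than lower. Most estimates were negative here: 37 of 42 log2 fold changes were below 0, against 53.7% of all genes tested, and the median was -0.37 beside -0.05. The members moved together between libraries, with untreated LGR5- replicate 3 the lowest of its group for all 42. A count of signs, here and in the comparisons below, is therefore not a count of independent genes. At an unadjusted P below 0.05, 13 members were lower and 1 higher, against 14.7% and 14% of all genes. The groups did not overlap for 6 lower members and 1 higher one, against 13.4% and 13.7%. DESeq2 called 8 members (7 lower, 1 higher), the 6 above with Dkc1 and Ncl, beside 19.5% of all genes called in either direction. The count of calls by edgeR depended on single libraries: it was 18 (17 lower, 1 higher) without untreated LGR5- replicate 3, where 9.88% of all genes were called lower and 11% higher. It was 14, all lower, without both LGR5- replicate 3 libraries, where 7.41% of all genes were lower. A fit of the LGR5- libraries alone called 1 lower, Exosc8, beside 3.52% of all genes. With a block for replicate number 12 were called (11 lower, 1 higher), beside 17.9% of all genes. Without untreated LGR5- replicate 3, Dis3, Dkc1, Exosc3, Fbl, Gar1, Gnl3, Ncl, Nolc1, Nop56, Nop58, Polr1b and Tsr1 joined the 6. The median stayed below 0 when any 1 library was left out, from -0.64 to -0.21. Both members called in LGR5+ cells were among those called in LGR5- cells. No member passed the study's own thresholds, an unadjusted P below 0.05 with an absolute log2 fold change above 1.5, in either population, while 7.23% (LGR5+) and 7% (LGR5-) of all genes did.

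**Figure D3:**
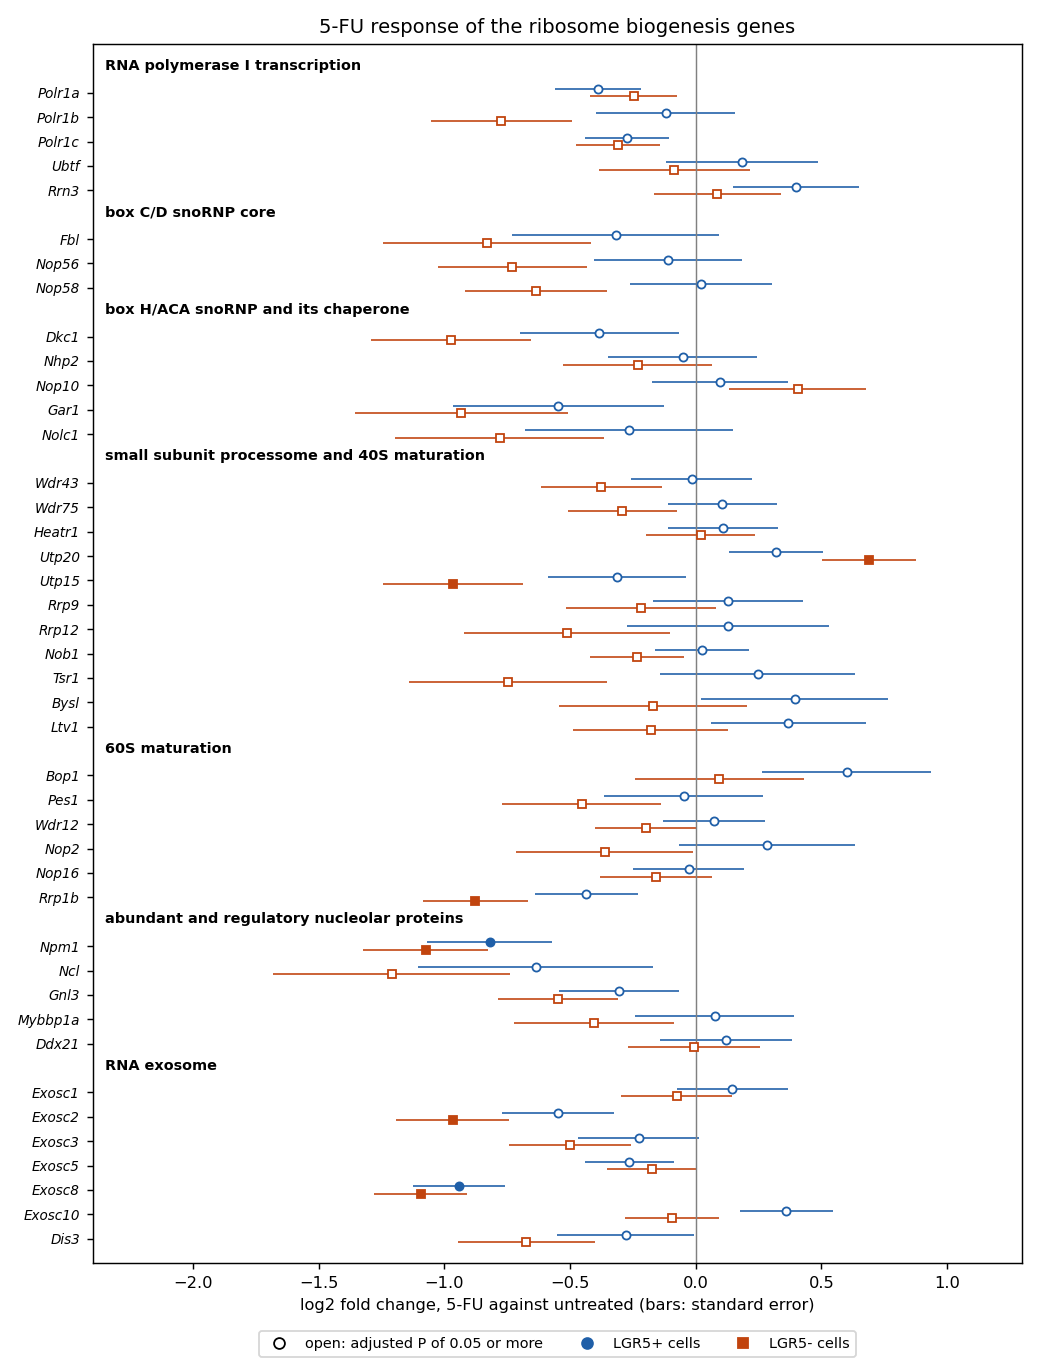
Points give each member's log2 fold change, 5-FU against untreated, in LGR5+ (blue circles) and LGR5- cells (orange squares), with bars for the standard error and filled symbols for called members. The LGR5- values lay to the left of the LGR5+ values for 38 of 42 members, and the filled symbols are Exosc8 and Npm1 in both populations and Exosc2, Rrp1b, Utp15 and Utp20 in LGR5- cells.

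Exosc8 encodes a subunit of the ring of the RNA exosome (RRP43 in yeast). It lies on chromosome 3 (54728678 to 54735393, minus strand, GRCm38). Untreated LGR5- libraries had 130, 134 and 93.2 CPM and 5-FU LGR5- libraries 49.5, 56.3 and 61.5 CPM. Untreated LGR5+ libraries had 121, 96.2 and 119 CPM, and 5-FU LGR5+ libraries 61.2, 53.1 and 60.8 CPM. All 6 treated libraries were below all 6 untreated ones. The log2 fold change was -1.10 ± 0.18 (SE) in LGR5- cells (edgeR adjusted P = 0.0013) and -0.94 ± 0.18 in LGR5+ cells (edgeR adjusted P = 0.00283), or 0.468 and 0.521 of the untreated level. Exosc8 was called in both populations under every alternative run with a P adjusted over all genes. Its exons share 2.1% of their bases with Supt20 on the other strand, and whether counting used strand is not given in the sources used here.

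The window around the start site of Exosc8 is shown because this gene fell in both populations, and that of Utp20 because it was the member that rose. Both are 300 bases from RefSeq (GRCm38.p6), from 250 before to 50 after the start, so they cover the promoter and the beginning of the first exon, written 5′ to 3′ on the minus strand of each gene. Exosc8 is at chr3:54735315-54735614 and Utp20 at chr10:88826765-88827064. Capitals mark CACGTG, the E-box core that MYC-MAX dimers and related factors bind, which reads the same on both strands.
Exosc8: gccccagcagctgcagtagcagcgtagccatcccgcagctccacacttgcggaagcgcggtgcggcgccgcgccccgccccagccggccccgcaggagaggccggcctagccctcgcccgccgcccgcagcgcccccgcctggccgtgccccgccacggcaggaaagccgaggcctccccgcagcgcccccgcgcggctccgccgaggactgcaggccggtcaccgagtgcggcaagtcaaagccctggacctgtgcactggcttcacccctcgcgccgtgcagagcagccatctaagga
Utp20: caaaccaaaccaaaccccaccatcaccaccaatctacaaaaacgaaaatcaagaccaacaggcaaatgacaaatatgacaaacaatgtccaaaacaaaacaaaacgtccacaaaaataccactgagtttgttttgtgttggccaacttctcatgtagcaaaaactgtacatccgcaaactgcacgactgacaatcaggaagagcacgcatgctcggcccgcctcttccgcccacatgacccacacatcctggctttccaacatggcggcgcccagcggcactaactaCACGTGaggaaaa
The Exosc8 window was 75.7% G and C and held no CACGTG, and the Utp20 window was 47.0% G and C and held 1, downstream of the start.

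The motif was searched because ribosome biogenesis genes are widely described as MYC targets. Of the 38 members with a RefSeq window (Npm1, Fbl, Bop1 and Rrp12 had none), 9 held CACGTG (23.7%), beside 8.09% of the 27025 genes in the window table and 7.15% of its 32851 windows. Besides Utp20 these were the following, each shown with up to 10 flanking bases in lower case, the motif in capitals with its position (GRCm38.p6), on the strand of the gene.
Nop2 (chr6:125131823-125131828, plus strand): gtccctggatCACGTGtgttccggtg
Exosc5 (chr7:25659109-25659114, plus strand): aacgctgagcCACGTGctagggccaa
Ltv1 (chr10:13193104-13193109, minus strand): cctgtggaccCACGTGtggagctgcc
Pes1 (chr11:3963977-3963982, plus strand): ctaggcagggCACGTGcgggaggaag
Mybbp1a (chr11:72441367-72441372, plus strand): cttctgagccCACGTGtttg
Tsr1 (chr11:74898104-74898109, plus strand): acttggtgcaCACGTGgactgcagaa
Rrn3 (first copy) (chr16:13780484-13780489, plus strand): gcgccaaggtCACGTGcacacgcctc
Rrn3 (second copy) (chr16:13780651-13780656, plus strand): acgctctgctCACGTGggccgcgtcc
Wdr43 (chr17:71616232-71616237, plus strand): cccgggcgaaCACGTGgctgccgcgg
In Nop2, Exosc5 and Rrn3 the motif lay before the annotated start, and in Ltv1, Pes1, Mybbp1a, Tsr1 and Wdr43 after it. The median log2 fold change with 5-FU was 0.25 for the 9 members with the motif and -0.11 for the 29 without it in LGR5+ cells, and the corresponding LGR5- medians were -0.36 and -0.31. A match is a sequence description only, and these medians were not tested. The 27025 genes of the window table outnumber the 16157 tested here, while all members were tested. The shares with the motif thus compare unlike sets, and no share among tested genes was computed. Myc mRNA had a log2 fold change of 0.48 ± 0.22 (SE; edgeR adjusted P = 0.151) in LGR5+ and 0.28 ± 0.22 (edgeR adjusted P = 0.435) in LGR5- cells. Its relative Mycn, at 0.833 to 1.59 CPM in untreated and 2.71 to 5.96 CPM in 5-FU libraries, rose in both, with log2 fold changes of 2.15 (LGR5+, edgeR adjusted P = 0.00058) and 1.58 (LGR5-, edgeR adjusted P = 0.00568).

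Among the other exosome genes, Exosc2 (chromosome 2, 31670715 to 31681349, plus strand) encodes an RNA-binding cap subunit, RRP4. Its levels were 64.7, 74.8 and 40.7 CPM in untreated and 34.1, 34.8 and 23.2 CPM in 5-FU LGR5- libraries. In LGR5+ libraries they were 58.6, 46.3 and 51.1 CPM untreated and 36.7, 32.1 and 37.8 CPM with 5-FU. The groups did not overlap in either population, and the log2 fold change was -0.97 ± 0.22 (edgeR adjusted P = 0.00968) in LGR5- and -0.55 ± 0.22 (edgeR adjusted P = 0.112) in LGR5+ cells. An antisense gene, Gm13427, shares 12.4% of the Exosc2 exon bases, with 35 reads over 12 libraries against 9161 for Exosc2. The LGR5- call was lost without untreated LGR5- replicate 2 (adjusted P = 0.0539). Exosc3, the cap subunit RRP40 and the exosome member highest per exon length, had log2 fold changes of -0.23 (LGR5+) and -0.50 (LGR5-) and was not called from all libraries. In LGR5- cells it was called lower without untreated LGR5- replicate 3 (-0.77, edgeR adjusted P = 0.00825) and without both LGR5- replicate 3 libraries (-0.70, edgeR adjusted P = 0.015). The 2 nucleases of the complex also were not called from all libraries without a block. Dis3, the main catalytic subunit, had log2 fold changes of -0.28 and -0.67 in LGR5+ and LGR5- cells, and the nuclear exonuclease gene Exosc10 had 0.36 and -0.09. Dis3 was called lower in LGR5- cells with a block for replicate number and without untreated LGR5- replicate 3. Exosc1 (cap) and Exosc5 (ring) had log2 fold changes between -0.26 and 0.15. In all, 2 of 7 exosome genes fell in LGR5- (28.6%, beside 7.11% of all genes) and 1 of 7 in LGR5+ cells (14.3%, beside 6.37%), and none rose. Of 7 further exosome genes and cofactors, which belong to the second list described below, 0 were called in either population.

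**Figure D4:**
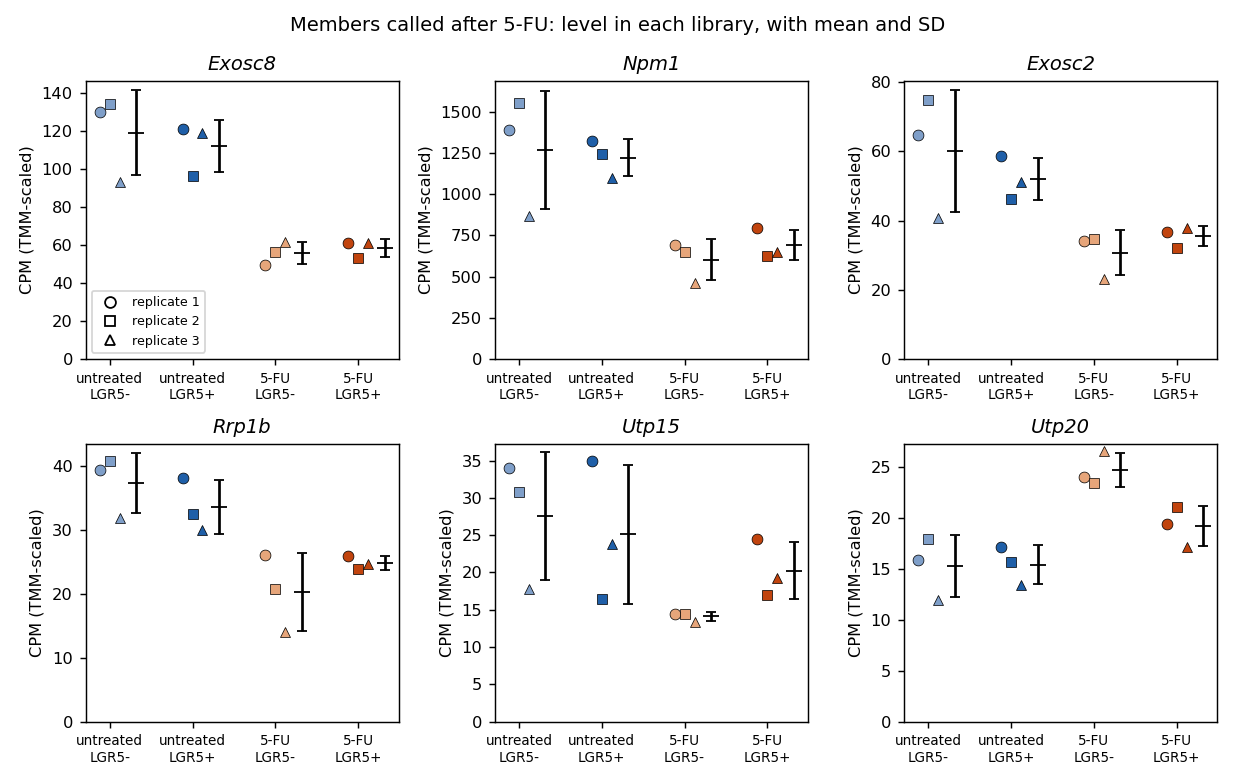
Panels show the 6 members called in at least 1 comparison of 5-FU with untreated cells, as TMM-scaled CPM in each library (points shaped by replicate) with the mean and SD of 3 libraries as bars. For Exosc8, Npm1, Exosc2 and Rrp1b the treated libraries lay below the untreated ones within both populations, and for Utp20 they lay above, narrowly so in LGR5+ cells.

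Of the abundant and regulatory nucleolar proteins, Npm1 (chromosome 11, 33152287 to 33163206, minus strand) fell in both populations. Untreated LGR5- libraries had 1390, 1550 and 865 CPM, and 5-FU LGR5- libraries 694, 649 and 460 CPM. Untreated LGR5+ libraries had 1320, 1240 and 1100 CPM, and 5-FU LGR5+ libraries 795, 624 and 651 CPM. The highest treated library, 795 CPM, was below the lowest untreated one, 865 CPM. The log2 fold change was -1.08 ± 0.25 (edgeR adjusted P = 0.00943) in LGR5- and -0.82 ± 0.25 (edgeR adjusted P = 0.036) in LGR5+ cells. In LGR5+ cells the call was lost when any LGR5+ library but 5-FU replicate 1 was left out, with adjusted P of 0.0733 to 0.15. Npm1 has 8 pseudogene copies that could share its reads, and these held 3.24% as many reads as the gene itself.

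Ncl showed a fold change of similar size with far more spread. Its levels were 1460, 1830 and 583 CPM in untreated and 787, 701 and 186 CPM in 5-FU LGR5- libraries, with the lowest value of each group in replicate 3. In LGR5+ libraries they were 1420, 1080 and 906 CPM untreated and 923, 699 and 571 CPM with 5-FU. The groups overlapped in both populations, and the log2 fold change was -1.21 ± 0.47 (edgeR adjusted P = 0.102) in LGR5- and -0.64 ± 0.47 (edgeR adjusted P = 0.402) in LGR5+ cells. DESeq2 called Ncl lower in LGR5- cells, and without both LGR5- replicate 3 libraries edgeR called it lower in both populations. Gnl3, the nucleolar GTPase nucleostemin, had log2 fold changes of -0.30 (LGR5+) and -0.55 (LGR5-). The RNA helicase gene Ddx21 (0.12 and -0.01) and Mybbp1a (0.08 and -0.40), which encodes a MYB-binding nucleolar protein, were not called.

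The small subunit processome holds the member that rose. Utp20 (chromosome 10, 88746607 to 88826804, minus strand), which encodes a very large processome protein, had 15.9, 18.0 and 12 CPM in untreated and 24.1, 23.5 and 26.6 CPM in 5-FU LGR5- libraries. In LGR5+ libraries it had 17.2, 15.7 and 13.4 CPM untreated and 19.4, 21.1 and 17.2 CPM with 5-FU. The groups were apart in LGR5- cells, where the log2 fold change was 0.69 ± 0.19 (edgeR adjusted P = 0.0213), and nearly met in LGR5+ cells, where it was 0.32 ± 0.19 (edgeR adjusted P = 0.275). The LGR5- call was lost without untreated LGR5- replicate 1 (adjusted P = 0.0578) and without both LGR5- replicate 3 libraries. Utp15, a processome subunit needed for pre-rRNA transcription, moved the other way in LGR5- cells, from 34.0, 30.8 and 17.8 CPM to 14.5, 14.4 and 13.4 CPM, with a log2 fold change of -0.97 ± 0.28 (edgeR adjusted P = 0.0295). In LGR5+ libraries Utp15 had 35.0, 16.5 and 23.8 CPM untreated and 24.5, 17.0 and 19.2 CPM with 5-FU, and these groups overlapped. The Utp15 call was lost when any 1 LGR5- library other than untreated replicate 3 was left out, with adjusted P of 0.057 to 0.122.

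The other 9 members of this role were not called in either population from all libraries. Their log2 fold changes ran from -0.02 (Wdr43) to 0.39 (Bysl) in LGR5+ cells and from -0.75 (Tsr1) to 0.02 (Heatr1) in LGR5- cells. Without untreated LGR5- replicate 3, Tsr1 was called lower in LGR5- cells (-1.085, edgeR adjusted P = 0.0426). Ltv1, a 40S assembly factor and the highest of the role per exon length at 17.4 RPKM, had 0.37 and -0.18. The role as a whole summed to 368.1 ± 84.4 CPM in untreated and 399.5 ± 10.1 CPM in 5-FU LGR5+ cells, a difference within the untreated SD, and to 401 ± 122 and 331.8 ± 69.9 CPM in LGR5- cells.

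Of the 6 genes for 60S maturation, Rrp1b fell in LGR5- cells and none was called in LGR5+ cells. Rrp1b encodes a nucleolar protein of the large subunit precursors. It went from 39.3, 40.7 and 31.9 CPM to 26.1, 20.8 and 14 CPM in LGR5- libraries, groups that did not overlap, with a log2 fold change of -0.88 ± 0.21 (edgeR adjusted P = 0.0106). In LGR5+ libraries it had 38.1, 32.5 and 29.9 CPM untreated and 25.9, 23.8 and 24.7 CPM with 5-FU, also apart, with a log2 fold change of -0.44 ± 0.21 (edgeR adjusted P = 0.171). The 3 genes of the PeBoW complex, which is needed to mature the 28S precursor, had log2 fold changes of 0.60 (Bop1), -0.05 (Pes1) and 0.07 (Wdr12) in LGR5+ cells, while in LGR5- cells the same genes had 0.09, -0.45 and -0.20. The rRNA methyltransferase gene Nop2 (0.28 and -0.36) and Nop16 (-0.03 and -0.16), highest of the role per exon length, were not called.

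No gene of the snoRNPs passed the test described above, but DESeq2 called Dkc1 lower in LGR5- cells. Of the box C/D core, which carries out 2′-O-methylation, Fbl (fibrillarin, the methyltransferase) had log2 fold changes of -0.32 (LGR5+) and -0.83 (LGR5-), Nop56 -0.11 and -0.73, and Nop58 0.02 and -0.64. Fbl levels were 277, 280 and 92.2 CPM in untreated and 165, 143 and 56.7 CPM in 5-FU LGR5- libraries, with replicate 3 lowest in both groups. Without untreated LGR5- replicate 3 all 3 were called lower in LGR5- cells. Of the box H/ACA snoRNP, Dkc1, the pseudouridine synthase dyskerin, had 176, 181 and 70.7 CPM in untreated and 80.0, 91.2 and 46.1 CPM in 5-FU LGR5- libraries. Its log2 fold change was -0.97 ± 0.32 (edgeR adjusted P = 0.0518) in LGR5- and -0.38 ± 0.32 (edgeR adjusted P = 0.458) in LGR5+ cells. Dkc1 was also called lower in LGR5- cells by edgeR among genes with at least 10 reads in every library. Gar1 (-0.55 and -0.93) and the snoRNP chaperone gene Nolc1 (-0.27 and -0.78) had lower estimates in LGR5- than in LGR5+ cells. Nop10 stood apart from its partners in 1 library: it had 849 CPM in 5-FU LGR5- replicate 3, where Gar1 was at 19.8 and Dkc1 at 46.1 CPM, and 344 to 504 CPM in the other 11. Nhp2 was at 371 CPM in that library, the highest of its group.

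None of the 5 RNA polymerase I genes passed the test in either population. Polr1a had log2 fold changes of -0.39 ± 0.17 (edgeR adjusted P = 0.143) in LGR5+ and -0.25 ± 0.17 (edgeR adjusted P = 0.376) in LGR5- cells. Polr1b had 8.85, 9.38 and 6.66 CPM in untreated and 5.30, 5.97 and 3.23 CPM in 5-FU LGR5- libraries, groups apart from each other, with a log2 fold change of -0.77 ± 0.28 (edgeR adjusted P = 0.077), beside -0.12 in LGR5+ cells. It was called lower in LGR5- cells without untreated LGR5- replicate 3. Polr1c, a subunit shared with RNA polymerase III and the highest of the role at 34.2 RPKM, had -0.27 (LGR5+) and -0.31 (LGR5-). The upstream binding factor gene Ubtf had 0.19 and -0.08, and Rrn3, which links the polymerase to its promoter factors, had 0.40 and 0.09.

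The comparison of LGR5+ with LGR5- cells asked whether the populations differ in these genes before and after treatment. In untreated cells 0 of 42 members were called, as were 0% of all genes, and at an unadjusted P below 0.05 the count was 0 members by edgeR against 1.32% of all genes. DESeq2 also called 0 members. The median log2 fold change was -0.11, beside -0.02 over all genes, with 36 of 42 members below 0 (54.3% of all genes), and with 1 library left out the median ran from -0.37 (without untreated LGR5- replicate 3) to 0.02 (without untreated LGR5- replicate 2), with -0.31 without untreated LGR5+ replicate 1. The groups overlapped for all 42 members (of all genes they did not for 2.7% higher and 2.57% lower). The smallest P values belonged to Gnl3, with a log2 fold change of -0.38 (95% interval -0.89 to 0.13, edgeR adjusted P = 1), and Exosc1, with -0.28 (-0.75 to 0.19, edgeR adjusted P = 1). Gnl3 had 131, 144 and 79.6 CPM in LGR5- and 125, 74.2 and 73.6 CPM in LGR5+ libraries. Exosc1 had 80.0, 97.7 and 50.9 CPM in LGR5- and 73.0, 55.0 and 60.6 CPM in LGR5+ libraries, so both genes overlapped between the populations.

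After 5-FU, 0 members were again called between LGR5+ and LGR5- cells by edgeR or DESeq2, beside 0% of all genes by edgeR and 0.631% by DESeq2. At an unadjusted P below 0.05 by edgeR, 2 members were higher in LGR5+ cells (7.42% of all genes higher and 5.55% lower). Of the members, 32 had a log2 fold change above 0, against 52.2% of all genes, with a median of 0.24 beside 0.03. The groups did not overlap for 10 members that were higher and 2 that were lower in LGR5+ cells (14.2% and 10.2% of all genes). Tsr1, a 40S assembly factor related to GTPases, had 20.0, 15.2 and 7.19 CPM in LGR5- and 33.2, 27.6 and 27.7 CPM in LGR5+ libraries, with a log2 fold change of 1.06 ± 0.40 (edgeR adjusted P = 0.357). Its exons share 32.3% of their bases with Srr on the other strand, a gene with 836 reads over all libraries against 4760 for Tsr1. Exosc10 had 33.3, 36.4 and 25.1 CPM in LGR5- and 40.7, 45.4 and 40.5 CPM in LGR5+ libraries, with a log2 fold change of 0.42 ± 0.19 (edgeR adjusted P = 0.373). The median of the members was 0.04 without 5-FU LGR5- replicate 3 and 0.42 without 5-FU LGR5- replicate 2.

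Whether the response to 5-FU itself differed between the populations was tested by the interaction of treatment and population. No member was called by edgeR or DESeq2 (0% of all genes by edgeR), and 0 members against 1.57% of all genes had an unadjusted P below 0.05. The study's thresholds were met by 0 members in this contrast or between the populations, beside 0.427% of all genes here, 0.458% in untreated and 1.7% in 5-FU cells. The estimate was above 0, a response less negative or more positive in LGR5+ cells, for 38 of 42 members against 54.5% of all genes, with a median of 0.39 beside 0.04. All 42 of the 95% intervals included 0, and they reached from 0.507 to 1.41 on the log2 scale to each side of the estimate. For Exosc8 the difference was 0.15 (-0.40 to 0.70) and for Npm1 0.26 (-0.49 to 1). The smallest P values were those of Tsr1 (0.99, interval -0.20 to 2.18, edgeR adjusted P = 1) and Exosc10 (0.46, -0.11 to 1.02, edgeR adjusted P = 1). The median of the members was 0.16 without 5-FU LGR5- replicate 3 and 0.59 without untreated LGR5- replicate 3.

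Other genes of the same pathway were taken from a second list of 123 ribosome biogenesis factors, of which 118 were found and tested. In LGR5+ cells 4 of them rose and 3 fell, and in LGR5- cells 1 rose and 4 fell, shares of 5.93% and 4.24% beside the backgrounds of 16% and 15.4%. Tcof1, the treacle protein that acts with UBF at ribosomal DNA, fell in both, with log2 fold changes of -1.07 ± 0.28 (LGR5+, edgeR adjusted P = 0.0183) and -1.35 ± 0.29 (LGR5-, edgeR adjusted P = 0.00559). It had 61.9, 72.1 and 36.9 CPM in untreated and 26.9, 26.3 and 13.7 CPM in 5-FU LGR5- libraries, and 54.6, 60 and 51.1 against 34.1, 24.2 and 20.6 CPM in LGR5+ libraries. Emg1, the methyltransferase of a modified 18S nucleotide, also fell in both (-0.65 and -0.57 in LGR5+ and LGR5- cells). Pih1d1 of the snoRNP assembly complex fell in LGR5+ cells (-0.62) and the 60S factor gene Sdad1 in LGR5- cells (-0.73). Taf1a of the polymerase I promoter factor SL1 (0.70), the 40S kinase gene Riok3 (0.64) and the processome gene Rrp36 (0.67) rose in LGR5+ cells, and Rpp38 of RNase MRP (0.84) rose in LGR5- cells. No gene of this list differed between the 2 responses by edgeR at an adjusted P below 0.05. At an unadjusted P below 0.05, 2 of the 118 did, beside 1.57% of all genes. With scaling by library size alone 1 was called higher and 5 lower in LGR5+ cells, beside 7.73% and 7.15% of all genes. Without 5-FU LGR5+ replicate 3 no gene of this list was called in LGR5+ cells (8.22% of all genes were), and without untreated LGR5- replicate 3 23 were called in LGR5- cells, all lower, beside 9.88% of all genes. The median log2 fold change was 0.06 in LGR5+ and -0.23 in LGR5- cells.

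The treatment also changed genes of proliferation and of the p53 response. All 8 proliferation genes fell in LGR5- and 5 of 8 (62.5%) fell in LGR5+ cells, beside 7.11% and 6.37% of all genes. The proliferation marker gene Mki67 had log2 fold changes of -2.05 ± 0.47 (LGR5+, edgeR adjusted P = 0.00874) and -1.75 ± 0.46 (LGR5-, edgeR adjusted P = 0.0209). In untreated LGR5- replicate 3, which was low in the members, 5 of the 8 (Pcna, Mcm2, Mcm5, Ccnb1 and Cdk1) were at their lowest of the group, while Mki67 was at its highest, 178 CPM beside 119 and 145 CPM. Of the 9 tested genes of ribosomal stress and p53, 4 rose and 1 fell in each population, or 55.6% called beside 16% (LGR5+) and 15.4% (LGR5-) of all genes. The p53 targets Cdkn1a (1.72 in LGR5+, 1.89 in LGR5-) and Mdm2 (1.91 and 1.56) rose, and Rpl5 (-0.72 and -0.66), whose ribosomal protein binds MDM2 when ribosome assembly fails, fell in both populations. Rpl11, its partner in that role, had -0.47 (edgeR adjusted P = 0.136) and -0.27 (edgeR adjusted P = 0.418).

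Of 9 tested snoRNA host genes, whose introns carry guide RNAs of rRNA modification, 1 fell in LGR5+ cells (Snhg5, named after its values were seen, with -0.88 and edgeR adjusted P = 0.0107) and none was called in LGR5- cells, or 11.1% and 0% beside 16% and 15.4% of all genes. Gas5 had 694, 845 and 678 CPM in untreated and 571, 345 and 390 CPM in 5-FU LGR5+ libraries, with a log2 fold change of -0.76 ± 0.28 (edgeR adjusted P = 0.0817), beside -0.31 ± 0.28 (edgeR adjusted P = 0.518) in LGR5- cells. In the MYC network of 11 genes, 4 rose and 1 fell in LGR5+ cells and 3 rose and 1 fell in LGR5- cells, 45.5% and 36.4% of the list beside 16% and 15.4% of all genes called in either direction. Besides Mycn these were Mxd1 (1.28 in LGR5+, 1.07 in LGR5-) and Mxd4 (1.83 and 1.85), which rose, and Mxd3 (-2.16 and -2.004), which fell, all 3 encoding MAX partners that oppose MYC, with Mlx (0.66) higher in LGR5+ cells. These genes were named after their values were seen.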

How the data were processed

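RNA-seq was made from sorted mouse liver cancer organoid cells, 3 libraries in each of 4 groups. The authors deposited 1 table of raw read counts per gene, with Ensembl identifiers. The labels name a SMART-Seq kit and the study's methods a SMARTer kit for amplifying the RNA. The submitters' processing notes name HISAT2, HISAT, TopHat2, HTSeq and the mm8 build without roles. Whether counting used strand is not given in the sources used here.

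From these counts, 16157 of 47069 genes passed filterByExpr. Symbols, exon lengths and positions came from GENCODE M21 (GRCm38), which matched 46488 identifiers (581 were without a symbol). Which annotation the authors counted on is not given in the sources used here. edgeR 4.0.16 (R 4.3.3) fitted 4 group means by robust quasi-likelihood with TMM scaling over all 12 libraries, with Benjamini-Hochberg adjustment over all genes tested. Standard errors are the log2 fold change divided by the root of F. The 5 comparisons were 5-FU against untreated in each population, LGR5+ against LGR5- in each condition, and their interaction. The fit was tested on simulated data. Alternatives were DESeq2 1.42.0, other scalings and filters, a replicate block, the study's thresholds, fits of only the libraries compared, and leaving out each library. Leaving out both LGR5- replicate 3 libraries was chosen after seeing the data. The members and all lists were chosen with earlier results of these data known. Members named with values were those called with 5-FU, the 2 with the smallest P in other comparisons, and the highest per exon length in each role, and of the second list up to 3 called genes per direction. Outside this rule, levels by library are also given for Ncl, Fbl, Dkc1 and Polr1b, and levels in 1 library for Gar1 and Nhp2. The other members are given by their estimates, some only within a range. Pseudogene copies were found with BLAST at 90% identity over 300 bases, and 22 members share exon bases with another annotated gene. No pair of libraries agreed within sampling noise (chi-square per degree of freedom of at least 4.42).

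Replicate numbers were checked for pairing by correlating deviations from group means. All 3 same-numbered pairs correlated above 0.1 (0.571, 0.217 and 0.304) between 5-FU LGR5- and 5-FU LGR5+ libraries, but not between other groups.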

Additional observations from a re-analysis of the deposited data

How the results depend on the processing

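The numbers of members called between LGR5+ and LGR5- cells, before and after 5-FU and in the interaction, were 0 under every alternative run. Of all genes, the share called at an adjusted P below 0.05 was also 0%, except between the populations after 5-FU. There it was 0.631% by DESeq2 and 0.0396% by edgeR without the filter on low counts. With the replicate block, which the same-numbered pairs bear out between the 5-FU groups, the comparison of those groups still had 0 members called. Between treatments and between the untreated groups, the check with 3 libraries per group neither established nor excluded pairing. Between treatments the block gave 2 members in LGR5+ and 12 in LGR5- cells, beside 18.4% and 17.9% of all genes. The 12 were 1 higher and 11 lower, with Dis3, Dkc1, Fbl, Gar1, Ncl and Polr1b added to the 6. Under the study's thresholds 0 members and 0 genes of the second list were called in either population. Fits of only the libraries compared gave 4 members in LGR5+ cells and 1 (Exosc8) in LGR5- cells, and 25 and 1 genes of the second list, beside 26.7% and 8.35% of all genes. DESeq2 gave 2 and 8 members in LGR5+ and LGR5- cells, and 11 genes of the second list in LGR5+ cells, beside 7 by edgeR (20.6% and 19.5% of all genes by DESeq2). Leaving out 1 library gave 1 to 2 members in LGR5+ cells and 4 to 18 in LGR5- cells, and 0 to 4 and 2 to 23 genes of the second list. The lowest count, 0, came without 5-FU LGR5+ replicate 3 (8.22% of all genes called in LGR5+ cells), and the highest, 18 and 23, without untreated LGR5- replicate 3 (20.8% in LGR5- cells). Without both LGR5- replicate 3 libraries, 6 members were called in LGR5+ and 14 in LGR5- cells, and 25 and 17 genes of the second list, beside 27.5% and 16.9% of all genes. The former 6 hold both members called from all libraries and the 14 hold 5 of 6, without Utp20. The cause of these changes was not tested. The median of the members in LGR5+ cells ran from -0.09 to 0.14 when 1 library was left out, and scaling by library size alone moved the median of all genes there from -0.02 to -0.10 and that of the members to -0.11. The median of the second list in LGR5+ cells was 0.06 and changed sign, to -0.02, with library-size scaling and without untreated LGR5+ replicate 2. The 6 members called from all libraries kept their direction under the alternatives run.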
